A study of Mus musculus with 4 samples.

Results

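The aryl hydrocarbon receptor (AhR) pathway was followed here through 8 genes of 23359 rows in the expression table: the receptor gene Ahr, its partner Arnt, the repressor gene Ahrr, and the target genes Tiparp, Cyp1a1, Cyp1a2, Cyp1b1 and Aldh3a1. They were picked by symbol for their known roles, and all 8 were found. The cells were tumour-initiating stem-like cells, grown in culture from liver tumours of C57BL/6 mice. The labels do not say how many tumours or mice they came from. Their medium held serum, EGF and the glucocorticoid dexamethasone in every group. One culture received vehicle. Another was given ATRA at 5 µg/ml (all-trans retinoic acid, the ligand of the retinoic acid receptors that cells make from vitamin A). Another was given SAHA at 0.5 µg/ml (suberoylanilide hydroxamic acid or vorinostat, which blocks histone deacetylases). The last culture received both compounds. Treated cultures were exposed for 16 hours. Each group had 1 library, so no difference below has a replicate check, an error or a p-value.

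AhR is a transcription factor of the bHLH-PAS family that rests in the cytoplasm with chaperones until a ligand, such as a dioxin, a polycyclic aromatic hydrocarbon or a tryptophan product, binds it. It then enters the nucleus, pairs with ARNT and binds a short DNA element near genes for drug-metabolising enzymes. In liver the pathway is known above all for the induction of the CYP1 enzymes, and AHRR and TIPARP act as its negative feedback.

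Levels are given in FPKM, fragments counted per kilobase of transcript and scaled by library size, which can be compared between genes. Differences are log2(FPKM + 1) in one library minus the other, a scale that understates differences of low genes. Folds are ratios of the FPKM values themselves. The mark for calling a gene higher or lower was a difference of 1 or more, 2-fold on that scale. Such calls were made among the 8616 genes whose 4 libraries averaged 1 FPKM or more, called the counted genes. Of the 8 members 5 did so: Ahr, Arnt, Tiparp, Cyp1a1 and Aldh3a1. Cyp1a2, Cyp1b1 and Ahrr stayed below that mean and are given by their levels.

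The 4 libraries were of similar estimated depth, with 1 FPKM over 1 kilobase standing for about 94.8 to 102 fragments. The number of genes reaching 1 FPKM ran from 7781 to 8542. The liver label was checked against cell type markers. None of the 8 hepatocyte markers, Alb and Hnf4a among them, exceeded 0.0967 FPKM in any library, and 4 of the 8 were listed at 0 in at least 1. The summed hepatocyte markers ran from 0.128 to 0.163 FPKM. Of 4 bile duct markers 2 had a mean of 1 FPKM or more (Krt7 and Sox9), and none exceeded 2.99 FPKM in any library. Of 6 mesenchymal markers 1 had such a mean (Vim, at 319 to 562 FPKM). Among macrophage markers only Cd68 did, and none of the endothelial or lymphocyte markers did. The response to retinoid was checked on Dhrs3, a retinaldehyde reductase gene that retinoic acid induces, chosen after its values were seen. Dhrs3 was at 0.0780 FPKM with vehicle, 15.5 under ATRA, 0.119 under SAHA and 0.153 under both compounds. The library labelled ATRA and SAHA therefore did not show the Dhrs3 level of the ATRA library. The treatment and a wrong label cannot be told apart here, and every value given for both compounds rests on that label. Tgm2, another retinoid target, stood at 3.98, 14.7, 3.0 and 4.45 FPKM across these libraries.

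The receptor gene itself stayed within the 2-fold mark. Ahr (chromosome 12, 35497974 to 35535038, minus strand, mm10) was at 5.63 FPKM with vehicle, 6.08 under ATRA, 7.0 under SAHA and 7.37 under both. Its highest level was 1.31-fold its lowest, the smallest span of the 8 genes. The differences from vehicle were 0.10, 0.27 and 0.34 on the log2 scale, none of them past the mark. The SAHA value was 0.68 under the equal totals. The combination differed from SAHA by 0.07, and by -0.08, -0.13 and -0.52 after centring, upper quartile scaling and equal totals.

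Arnt (chromosome 3, 95434388 to 95497240, plus strand), whose product pairs with AhR and also with the hypoxia-inducible factors, was lower than Ahr in every library. It was at 0.973 FPKM with vehicle, 0.935 under ATRA, 0.768 under SAHA and 1.77 under both. The combination library held the highest level, 1.82-fold that of vehicle and 2.31-fold that of SAHA. On the log2 scale these differences were 0.49 and 0.65, below the mark. With a pseudocount of 0.1 in place of 1, the difference from SAHA was 1.11, past the mark.

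Ahrr (chromosome 13, 74211118 to 74292331, minus strand), whose product competes with AhR for ARNT and for the DNA element, was barely measured. It was at 0.00806 FPKM with vehicle, 0.0166 under ATRA, 0.0162 under SAHA and 0.0101 under both, about 4 to 7 fragments per library by the depth estimate. At that depth no difference between libraries could be read.

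**Figure D1:**
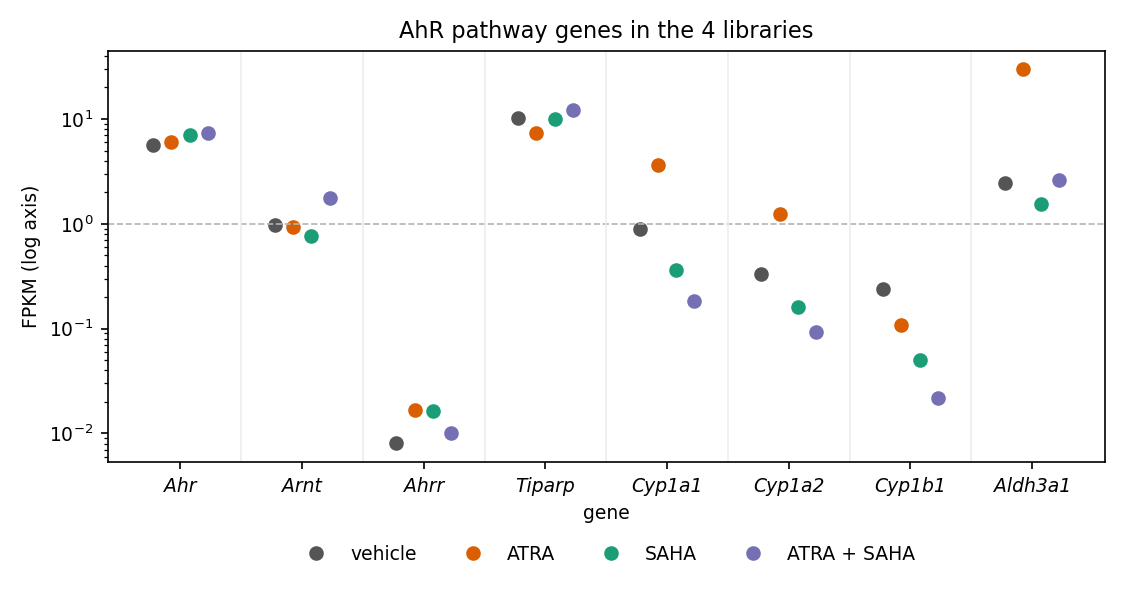
FPKM of the 8 AhR pathway genes on a log axis, with 1 point per library coloured by treatment and a dashed line at 1 FPKM. The 4 points of Ahr and the 4 points of Tiparp lie close together, Aldh3a1, Cyp1a1 and Cyp1a2 stand out with ATRA alone (29.7, 3.64 and 1.25 FPKM), and Ahrr stays at or below 0.0166 FPKM.

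Tiparp (chromosome 3, 65528410 to 65555518, plus strand), the gene of a mono-ADP-ribosyltransferase that AhR induces and that in turn limits AhR, had the highest vehicle level of the set. It was at 10.2 FPKM with vehicle, 7.38 under ATRA, 10.1 under SAHA and 12.2 under both. ATRA gave the lowest level and the combination the highest, 1.65-fold apart. The differences from vehicle were -0.42 with ATRA, -0.01 with SAHA and 0.24 with both, and no comparison reached the mark. The sign of the SAHA value turned under each of the 3 other scalings of the libraries tried. The Tiparp row shares its locus with 4931440P22Rik, which was at 0.0444 to 0.0854 FPKM.

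Aldh3a1 (chromosome 11, 61207537 to 61218421, plus strand) had the widest span on the log2 scale. Its product, a cytosolic aldehyde dehydrogenase, oxidises aromatic and medium-chain aldehydes. Aldh3a1 was at 2.42 FPKM with vehicle, 29.7 under ATRA, 1.55 under SAHA and 2.62 under both. The ATRA library alone was high, 12.2-fold above vehicle and 11.3-fold above the combination. In bulk RNA, fewer cells that express a gene and less RNA per cell cannot be told apart. The 4 bile duct markers, summed, were also highest with ATRA, at 4.32 FPKM in vehicle, 6.36 under ATRA, 2.96 under SAHA and 3.28 under both, and their part in the Aldh3a1 level was not tested. Among them Sox9 (1.19 and 2.69 FPKM with vehicle and ATRA) and Krt19 (0.102 and 0.778) were higher, while Krt7 (2.99 and 2.88) and Epcam (0.0406 and 0.00741) were lower. The difference of 3.16 from vehicle ranked 3 from the top among 8466 counted genes other than small RNAs. By the depth estimate about 408 fragments lay behind the vehicle value and 4866 behind the ATRA value.

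Cyp1a1 (chromosome 9, 57687928 to 57703824, plus strand), the classical AhR target, oxidises polycyclic aromatic hydrocarbons. It was at 0.890 FPKM with vehicle, 3.64 under ATRA, 0.360 under SAHA and 0.182 under both. ATRA alone gave the highest level, 4.09-fold that of vehicle, and the combination the lowest, 20.02-fold below ATRA. The difference from vehicle was 1.30 with ATRA, past the mark. With SAHA and with both it was -0.47 and -0.68, short of the mark. With a pseudocount of 0.1 these last values were -1.11 and -1.81, past it.

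Cyp1a2 (chromosome 9, 57676937 to 57683703, minus strand), its neighbour, encodes an enzyme best known from the adult hepatocyte, where it oxidises caffeine. It was at 0.336 FPKM with vehicle, 1.25 under ATRA, 0.162 under SAHA and 0.0922 under both. The order of the 4 libraries was that of Cyp1a1. Cyp1a2 was 3.73-fold higher with ATRA than with vehicle, and 3.64-fold lower with both than with vehicle. The Cyp1a1 level was 2.65 times that of Cyp1a2 with vehicle, 2.90 times with ATRA, 2.22 times with SAHA and 1.97 times with both. The lowest Cyp1a2 value rests on about 18 fragments. The RefSeq start sites of these genes lie 13958 bases apart, farther than the facing ends of the GENCODE spans above. The genes are transcribed away from each other. They are close paralogs, so reads from stretches they share could have been assigned to either.

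Cyp1b1 (chromosome 17, 79701537 to 79715061, minus strand), a CYP1 enzyme of many tissues outside the hepatocyte that oxidises oestradiol, had another order. It was at 0.238 FPKM with vehicle, 0.108 under ATRA, 0.0503 under SAHA and 0.0217 under both. Vehicle was highest, and the level was 2.20-fold lower with ATRA, 4.74-fold lower with SAHA and 10.9-fold lower with both. About 119 fragments stood behind the vehicle value and 11 behind the combination value. All its log2 differences from vehicle were between -0.16 and -0.28, since adding 1 FPKM hides differences at this level.

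The promoter sequences of the neighbours Cyp1a1 and Cyp1a2, which were highest with ATRA, are shown with those of the feedback genes Tiparp and Ahrr, so that the AhR element can be compared. They are the 250 bases before the start site, 5′ to 3′ on the gene's strand, from RefSeq on GRCm38.p6. Capitals mark the core of the AhR and ARNT element, GCGTG, on either strand (CACGC where it lies on the other).
Cyp1a1, chr9:57697363-57697612, plus strand: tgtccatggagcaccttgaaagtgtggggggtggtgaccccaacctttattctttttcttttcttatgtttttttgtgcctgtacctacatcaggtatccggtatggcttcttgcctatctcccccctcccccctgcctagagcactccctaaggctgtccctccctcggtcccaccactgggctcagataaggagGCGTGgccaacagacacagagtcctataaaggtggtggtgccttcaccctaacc
Cyp1a2, chr9:57683656-57683905, minus strand: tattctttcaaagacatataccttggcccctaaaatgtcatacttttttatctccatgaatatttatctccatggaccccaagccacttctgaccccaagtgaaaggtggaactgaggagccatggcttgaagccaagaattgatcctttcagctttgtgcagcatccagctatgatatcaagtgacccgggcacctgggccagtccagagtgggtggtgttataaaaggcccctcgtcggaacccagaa
Tiparp, chr3:65528197-65528446, plus strand: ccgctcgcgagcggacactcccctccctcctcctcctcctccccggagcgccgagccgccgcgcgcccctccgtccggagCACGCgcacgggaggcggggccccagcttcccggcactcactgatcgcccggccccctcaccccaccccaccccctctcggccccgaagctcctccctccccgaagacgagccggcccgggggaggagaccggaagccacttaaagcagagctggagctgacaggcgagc
Ahrr, chr13:74292332-74292581, minus strand: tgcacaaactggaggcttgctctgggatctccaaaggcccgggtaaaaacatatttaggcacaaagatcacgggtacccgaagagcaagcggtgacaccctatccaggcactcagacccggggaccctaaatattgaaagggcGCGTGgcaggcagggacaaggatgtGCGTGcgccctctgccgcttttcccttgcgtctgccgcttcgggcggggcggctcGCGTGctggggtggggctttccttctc

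Cyp1a1 held 1 core, 54 bases before the start site, and Tiparp held 1, 170 bases before it. Ahrr held 3, at 107, 82 and 27 bases before it, though the gene was barely measured in any library. Cyp1a2 held none in this window. Of the 6 members with a promoter in the table, 5 held at least 1 core, Arnt and Cyp1b1 being the others, against 28.2% of all 32851 promoter windows of this length. Both strands were searched, and each core in these member promoters was found on 1 strand only. The core TGACNNNGC of the NRF2 element was in 1 of the 6, Arnt, and in 10.2% of all windows. The exact letters AGGTCA, 1 form of the retinoid receptor half-site, were in 0 of the 6 and in 14% of all windows. Other forms, such as GGGTCA, were not searched. The Cyp1a1 and Cyp1a2 windows above hold that form on the other strand (TGACCC), so no absence of half-sites can be read. These matches describe letters in a short window, and the known Cyp1a1 enhancer lies farther upstream than it reaches.

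The filter let 2 of the 5 members in through their highest library. Without its ATRA library Cyp1a1 averaged 0.477 FPKM, and without the combination library Arnt averaged 0.892. The calls for Cyp1a1 in comparisons with the ATRA library are therefore given as a description, and the counts below support nothing by themselves. Counted over the set, ATRA against vehicle gave 2 of 5 members higher (Aldh3a1 and Cyp1a1) and 0 lower. Over all 8616 counted genes 2.11% passed the mark in this comparison, 0.917% as higher. Among the 3 members that pass the filter without their highest library, Aldh3a1 was the 1 past the mark. The median of the 5 members was 0.10 against -0.00055 over all counted genes. With SAHA these medians were -0.16 and -0.12, and with both compounds 0.24 and 0.04.

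SAHA against vehicle gave 0 of 5 members past the mark, where 23.9% of all counted genes passed it. The split of all genes, 679 higher and 1381 lower, was 1474 and 899 when libraries were set to equal totals without small RNAs and the 10 highest rows. The count for the members was 0 under that scaling too. Both CYP1A genes and Cyp1b1 had lower FPKM than with vehicle, by 2.47-fold for Cyp1a1, 2.07-fold for Cyp1a2 and 4.74-fold for Cyp1b1. With a pseudocount of 0.1, Cyp1a1 passed the mark as lower, as did 1946 of the 8616 counted genes.

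The combination against vehicle likewise gave 0 of 5 members past the mark, beside 23.7% of all counted genes. Aldh3a1 was within 1.08-fold of vehicle, and Cyp1a1 was 4.90-fold lower in FPKM. The 3 comparisons with vehicle share that single library, so a vehicle value that was off would move all 3.

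The combination against SAHA used the other pair of libraries that differ in ATRA, and no library of the first pair. It gave 0 of 5 members past the mark, beside 3.97% of all counted genes. Aldh3a1 was 1.69-fold higher than with SAHA (0.51), and Cyp1a1 was 1.98-fold lower (-0.20). The combination against ATRA gave 2 of 5 members lower, Aldh3a1 (-3.08) and Cyp1a1 (-1.97), beside 11.9% of all counted genes lower and 22.4% past the mark in either direction. Here too Cyp1a1 is counted only through its ATRA value, and Aldh3a1 was the 1 call among the other 3 described above. Cyp1a2, outside the count for its low mean, stood at -1.04 there, and at -0.97 under the equal totals.

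**Figure D2:**
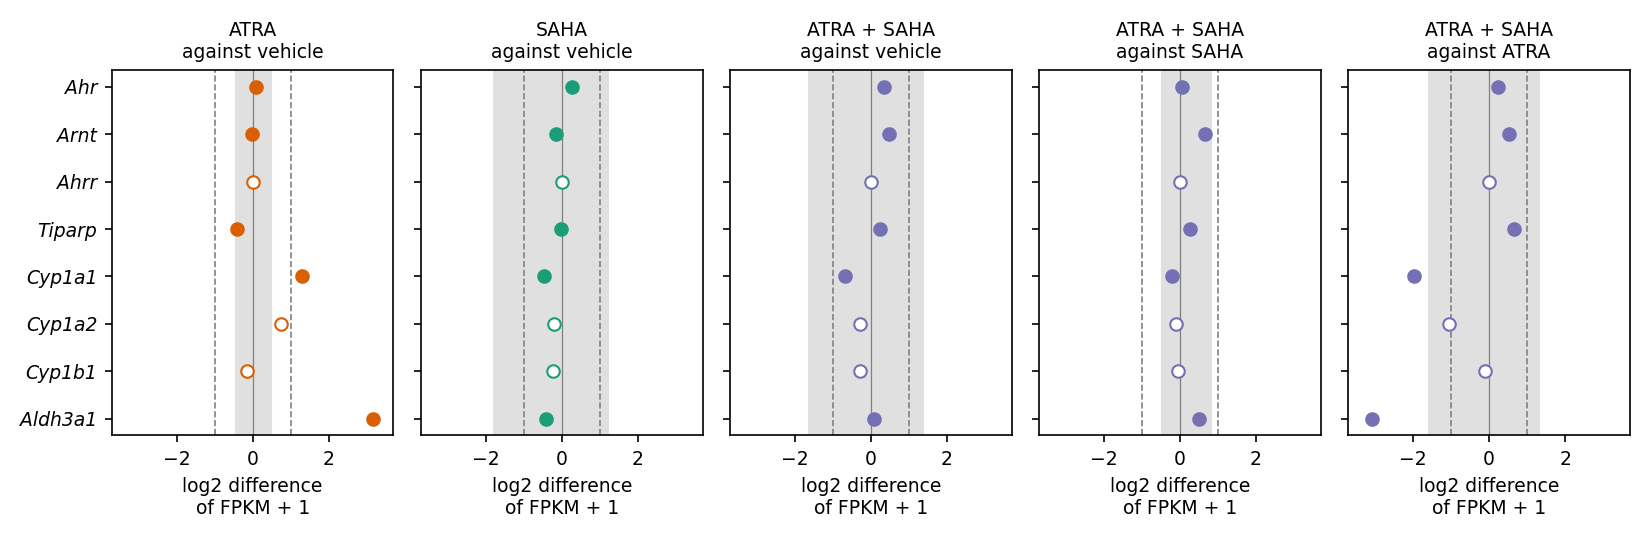
Differences of log2(FPKM + 1) for the 8 genes in 5 comparisons. Filled points are the 5 counted genes, open points the 3 others, grey bands hold 90% of the 8616 counted genes and dashed lines are the 2-fold mark. Aldh3a1 and Cyp1a1 are the points beyond the mark, at 3.16 and 1.30 with ATRA against vehicle and at -3.08 and -1.97 in the combination against ATRA, joined there by the open point of Cyp1a2 at -1.04.

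The 2 by 2 layout allows the ATRA difference with SAHA to be set beside that without it. The departure from additivity, which is the first minus the second, was -2.66 for Aldh3a1 and -1.5 for Cyp1a1. These were 2 of 5 members past 1 in size, beside 6.42% of all counted genes and 1.73% in this direction. The Cyp1a1 value rests on the ATRA library that brought it past the filter. All of these values assume that the library labelled with both compounds received ATRA, which the Dhrs3 level does not show. Cyp1a2, below the filter, stood at -0.84, and Ahr at -0.03. Arnt and Tiparp were on the other side, at 0.68 and 0.67, short of the mark. With a pseudocount of 0.1 the Arnt departure was 1.16, past it, and that of Cyp1a2 was -2.08. Without small RNAs, 43 counted genes were higher with ATRA than with vehicle. Of these, 1 was also higher with both compounds than with SAHA, or 2.33%. Of the 43, 26 were above 0 in that comparison, with a median of 0.15. The share and median over all counted genes without small RNAs were not computed. The gene past the mark was Igfbp4, an IGF-binding protein gene, at 56.1, 118, 1.76 and 9.34 FPKM with vehicle, ATRA, SAHA and both. With small RNAs included the count was 11 of 79, or 13.9%, beside 3.04% of all counted genes. The median of these 79 was 0, against 0.14 over all counted genes.

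**Figure D3:**
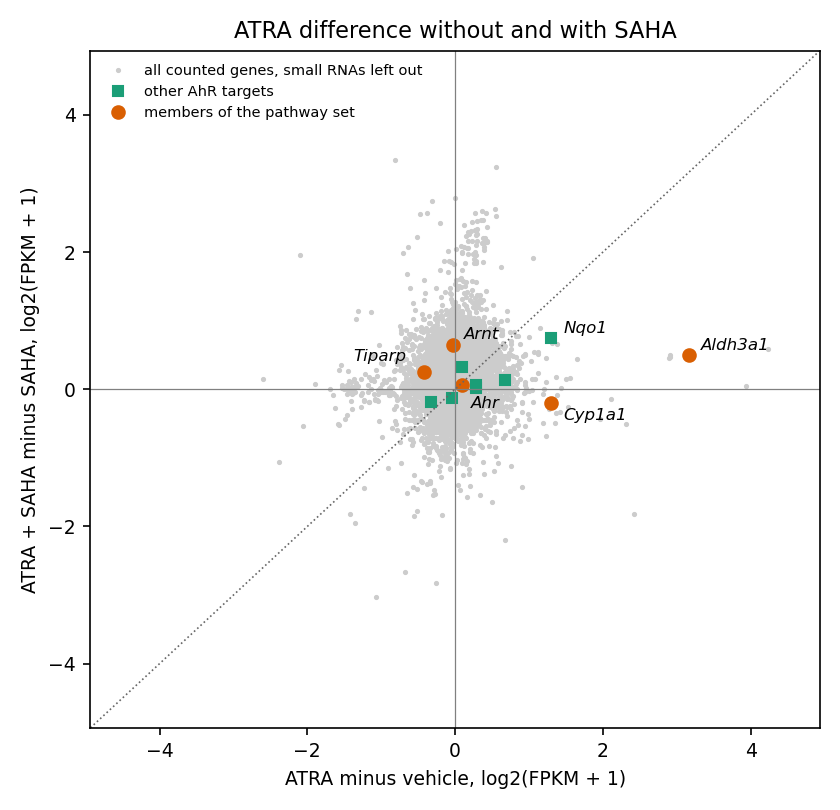
The ATRA difference without SAHA (x axis) against that with SAHA (y axis), in log2(FPKM + 1), for each counted gene other than small RNAs. The 2 axes share no library, and the dotted line marks equal differences. Aldh3a1 (3.16 and 0.51), Cyp1a1 (1.30 and -0.20) and Nqo1 (1.29 and 0.75) lie right of the cloud and below the line.

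Of the other genes that AhR is known to induce, listed from general knowledge, 7 of 18 were counted. With ATRA 1 was higher and 0 lower, with a median of 0.28. The higher one was Nqo1, a quinone reductase gene that NRF2 also induces, at 6.11 FPKM with vehicle, 16.4 under ATRA, 3.39 under SAHA and 6.40 under both. Nqo1 thus had the pattern of Aldh3a1, highest with ATRA and lowest with SAHA. Socs2, a cytokine signalling inhibitor gene, stood at 1.18, 2.47, 0.199 and 0.321 FPKM across these libraries, a difference of 0.67 with ATRA. Below the filter, the glucuronosyltransferase genes Ugt1a6a and Ugt1a6b were also highest with ATRA, at 0.198 and 0.317 FPKM against 0.0608 and 0.0884 with vehicle. They share exons and so share reads. Other listed targets below the filter had other patterns. Stc2 and Ereg were highest with vehicle, at 2.11 and 1.78 FPKM against 0.990 and 1.15 with ATRA. Gsta1 and Gsta2 were highest with SAHA, at 1.04 and 0.752 FPKM.

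With SAHA 1 of these 7 genes was higher and 3 were lower, with a median of -0.86. Over all counted genes 23.9% passed the mark with SAHA, 16.0% as lower, with a median of -0.12, and the split by direction turns under the equal totals. Pmm1, a phosphomannomutase gene, went from 1.96 FPKM in vehicle to 12.0 under SAHA. Nfe2l2, which encodes NRF2, was at 23.8 and 9.44 FPKM, Xdh, the xanthine dehydrogenase gene, at 4.77 and 0.936, and Ugdh, which makes UDP-glucuronic acid, at 9.17 and 3.31. The same 4 genes were past the mark on the same sides with both compounds. The SAHA values of Nfe2l2 and Ugdh stayed short of the mark under the equal totals, at -0.83 and -0.87.

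For the machinery around the receptor, the background is again 2.11% of all counted genes past the mark with ATRA and 23.9% with SAHA, and all-gene medians of -0.00055 and -0.12, the latter moved by 0.34 under the equal totals. The 4 chaperone genes were all counted and none passed the mark against vehicle: Hsp90ab1 was at 322, 382, 185 and 249 FPKM with vehicle, ATRA, SAHA and both. Of 5 genes of AhR ubiquitination and turnover, SAHA gave 1 higher, Tbl3 (2.03 FPKM with vehicle and 5.50 with SAHA), and 1 lower, Rbx1 (6.16 and 2.42). Medians of these 5 were -0.04 with ATRA and -0.41 with SAHA. The Rbx1 value of -1.07 was short of the mark under all 3 other scalings. Of 7 counted coregulator genes, ATRA gave 0 past the mark and SAHA gave 1 lower, the corepressor gene Ncor1 (5.97 FPKM with vehicle and 2.13 with SAHA). The coregulator medians were -0.18 under ATRA, -0.66 under SAHA and -0.74 under both. The Ncor1 value of -1.15 was short of the mark with the upper quartile scaling and with equal totals. Nrip1, a corepressor gene that retinoic acid induces, was at 2.97 FPKM with vehicle, 5.46 under ATRA, 1.51 under SAHA and 0.921 under both, and was lower in the combination than in vehicle (-1.05) and ATRA (-1.75).

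Other bHLH-PAS genes were mostly silent, with 3 of 13 counted. The shares of all counted genes past the mark were 2.11% with ATRA and 23.9% with SAHA. Arntl, the clock gene BMAL1, was at 3.28 FPKM with vehicle, 1.04 under ATRA, 5.54 under SAHA and 6.97 under both, lower with ATRA by the mark (-1.07). Hif1a, which competes for ARNT as its hypoxia partner, was at 10.3, 11.9, 4.40 and 6.11 FPKM. Its SAHA value of -1.06 was short of the mark under the 3 other scalings. Arnt2, a close relative of Arnt, was at 0.0886 to 0.114 FPKM, so Arnt was the more abundant of the pair throughout.

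Genes that make AhR ligands from tryptophan were low. Of 12 genes 3 were counted, and the first-step enzymes Tdo2, Ido1 and Ido2 did not exceed 0.170 FPKM in any library. Il4i1 was listed at 0 in all 4. Ccbl1, a kynurenine aminotransferase gene, was at 0.326 FPKM with vehicle, 0.329 under ATRA, 1.42 under SAHA and 2.20 under both. It was higher with both than with vehicle by the mark (1.27). Of all counted genes 23.7% passed the mark with both and 23.9% with SAHA, in either direction. The kynurenine and amino acid transporter genes Slc7a5 and Slc3a2 were at 20.6 and 21.9 FPKM with vehicle and 9.88 and 6.89 with SAHA, and Slc3a2 was lower by the mark (-1.53). Por, which passes electrons to the microsomal P450 enzymes, was at 18.0, 28.9, 29.0 and 30.6 FPKM with vehicle, ATRA, SAHA and both, short of the mark in each comparison. Under the equal totals its SAHA difference was 1.10.

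The counted relatives of Aldh3a1 did not pass the mark with ATRA. Of 9 counted aldehyde dehydrogenase genes 0 passed the mark with ATRA, 8 of 9 were above 0, and their median was 0.13. Aldh3a2, the nearest relative counted, had 3.19 FPKM in vehicle and 4.85 under ATRA. Below the filter, Aldh3b2 was at 0.177 FPKM with vehicle, 0.824 under ATRA, 0.204 under SAHA and 0.123 under both, high in the ATRA library alone and 4.64-fold above vehicle. With SAHA 2 of the 9 were higher, Aldh4a1 (0.411 FPKM with vehicle and 4.87 with SAHA) and Aldh6a1 (0.881 and 5.71). The 2 lower were Aldh1l2 (6.50 and 1.48) and Aldh18a1 (16.9 and 5.59). Over all counted genes 2.11% passed the mark with ATRA and 23.9% with SAHA, and the ATRA median was -0.00055.

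Among relatives of Tiparp in the PARP family, 10 of 14 were counted. ATRA gave 2 lower, Parp12 (11.4 FPKM with vehicle and 3.7 with ATRA) and Parp9 (6.92 and 2.50), both known as interferon-induced genes. SAHA gave 4 lower, those genes at 0.567 and 0.105 FPKM with Parp3 and Parp10, and the combination gave the same 4. Over all counted genes 2.11% passed the mark with ATRA, 23.9% with SAHA (16.0% as lower) and 23.7% with both. The Parp10 value with SAHA was -1.12, and was short of the mark after centring and under the equal totals, and its combination value after upper quartile scaling. The family medians were -0.07 with ATRA, -0.77 with SAHA and -0.31 with both. Those of all counted genes were -0.00055, -0.12 and 0.04. Tiparp itself was at 10.1 FPKM with SAHA.

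**Figure D4:**
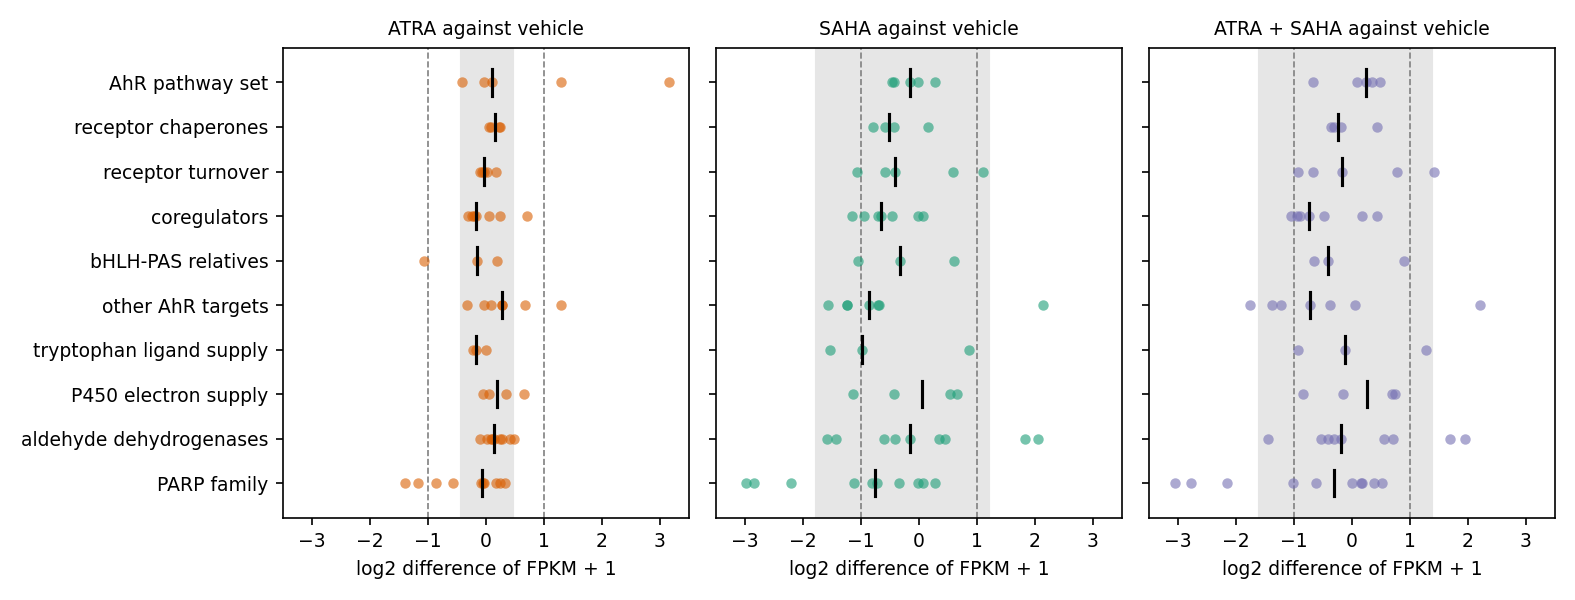
Differences of log2(FPKM + 1) from vehicle for the AhR pathway set and 9 lists of related genes, with 1 point per counted gene, a black bar at each list's median, grey bands holding 90% of all counted genes and dashed lines at the 2-fold mark. With ATRA the pathway set reaches 3.16 (Aldh3a1) and the other targets 1.29 (Nqo1), while the PARP family reaches down to -1.40 (Parp12).

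The genes with patterns nearest to each counted member were found by the root mean square distance between log2(FPKM + 1) values, each gene centred on its own mean, over the 4 libraries and 7941 candidates. With 4 libraries many genes lie close to a flat pattern, so nearness to Ahr, Arnt or Tiparp says little. For Ahr the nearest were Abcd3, Snap29, Vhl, Slc36a4 and Eif2b4, at distances of 0.0110 to 0.0198. For Arnt they were Stam, Ddx41, Nudt13, Hdac4 and Dpf2, at 0.0229 to 0.0270. For Tiparp they were Myo1e, Ftsj3, Dph1, Mrps6 and Fra10ac1, at 0.0177 to 0.0352. Cyp1a1 was nearest to Ramp1, Id1, Prss12, Smad3 and Ncmap, at 0.0959 to 0.168. Ramp1, a receptor activity-modifying protein gene, was at 1.13, 4.76, 0.554 and 0.569 FPKM with vehicle, ATRA, SAHA and both. Aldh3a1 was nearest to Dhrs3, Prl2c4, Upk3bl, Dbp and Prss12, at 0.327 to 0.657. Such distances grow with the span of a gene, widest here for Aldh3a1, so they cannot be compared between members. Dhrs3 was likewise high in the ATRA library alone. Dbp, a clock output gene, was at 1.36, 5.69, 0.317 and 0.462 FPKM.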

How the data were processed

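Total RNA depleted of ribosomal RNA was sequenced from 4 cultures, 1 library per group. The deposited values are FPKM, 1 column per library, per the file headers. Per the submitters' processing notes, Trimmomatic 0.32 trimmed the reads and Cuffdiff computed expression on mm10. The sources used here do not name the aligner, annotation, strand setting or library scaling. No status column was present in the table, so the planned filter on it was left out.

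Members and lists were chosen with earlier results of these data known. Genes named are the 8 members, counted genes of 9 lists (99 genes), and the 5 nearest genes of each counted member, leaving out predicted genes and small RNAs. Listed genes under 1 FPKM may be named as such. Dhrs3 as a check, Tgm2, Igfbp4, single markers and the other P450 genes were named after their values were seen. The values of 1 listed gene are not reported here. A group of 1 library allows no test, so log2(FPKM + 1) differences of 1 or more were counted among genes averaging 1 FPKM or more. The product of FPKM and transcript length shows discrete low steps, and the lowest was read as 1 fragment to estimate depth (GENCODE M21, 451 to 542 single-transcript genes of 1000 to 4000 bases). The fragment numbers use the longest transcript and are rough, and no counting interval is given. Gene coordinates are from GENCODE M21, and promoters from RefSeq GRCm38.p6, with 6 of the 8 members found. Alternatives were a pseudocount of 0.1, other filters and 3 other scalings. Python 3.11.15 and pandas 2.3.3 were used.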

Additional observations from a re-analysis of the deposited data

Results flagged for a closer look

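For 3 of the 5 counted members the ATRA difference had one sign without SAHA and the other with SAHA. Each came from 1 pair of libraries, and the contrast between them was not tested. The share of all counted genes with such a change was not computed, so the count says nothing particular about the members. Medians over all counted genes were -0.00055 without SAHA and 0.14 with it. Cyp1a1 was at 1.30 without SAHA and -0.20 with it, a departure of -1.5 on the log2 scale. Arnt was at -0.03, near 0, and at 0.65, a departure of 0.68. Tiparp was at -0.42 and 0.25, a departure of 0.67. The SAHA difference of Arnt was likewise -0.16 without ATRA and 0.52 with it, and that of Tiparp -0.01 and 0.66. The departures are the same in both readings by construction, 0.68 for Arnt and 0.67 for Tiparp. Under the equal totals the ATRA difference of Tiparp with SAHA was -0.36, so its signs no longer differed there. The SAHA difference of Tiparp without ATRA was above 0 under each of the 3 other scalings (0.11, 0.20 and 0.41) and that of Arnt under the equal totals (0.06), so those signs did not differ there either. Below the filter, Cyp1a2 stood at 0.75 without SAHA and -0.09 with it, and Ahrr, at 0.01 and -0.01, rests on too few fragments to read.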

How the results depend on the processing

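The counts of members past the mark kept their value in all 5 comparisons and for the departure after centring, upper quartile scaling and equal totals. With a pseudocount of 0.1, 1 member passed the mark in SAHA against vehicle (Cyp1a1, lower), 1 in the combination against vehicle (Cyp1a1, lower) and 1 in the combination against SAHA (Arnt, higher), where 0 did before. For the departure 3 members passed in place of 2, Arnt being added. Centring moved the Cyp1a2 departure just past the mark. With a mean of at least 5 FPKM, only 3 members were counted, and 1 passed in ATRA against vehicle and 1 in the combination against ATRA, both Aldh3a1. Over all 8616 counted genes, a pseudocount of 0.1 gave 3045 past the mark in place of 2060 in SAHA against vehicle. The combination gave 3038 in place of 2043 against vehicle, 675 in place of 342 against SAHA and 2933 in place of 1930 against ATRA. For the departure 1012 passed in place of 553. The stricter filter, which tests 2958 genes, gave 66, 933, 911, 205 and 854 in place of 182, 2060, 2043, 342 and 1930. In the combination against SAHA, equal totals gave 549 in place of 342. They moved the median of all genes by -0.12 with ATRA, 0.34 with SAHA and -0.14 with both against vehicle, and by -0.48 in the combination against SAHA. The higher and lower counts in that last comparison went from 262 and 80 to 123 and 426, to 191 and 111 after centring, and to 183 and 128 with the upper quartile. Against vehicle, the combination gave 668 and 1317 under equal totals in place of 954 and 1089. For SAHA the counts were 881 and 1157 after centring and 1021 and 1076 with the upper quartile. Small differences changed sign under the equal totals: Ahr with ATRA (-0.05), Arnt with SAHA (0.06), Aldh3a1 in the combination against vehicle (-0.07), and Ahr in the combination against SAHA (-0.52). No paired analysis was possible because each group had 1 library.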

Other observations

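Few of the cytochrome P450 genes selected here reached 1 FPKM in these cells. They were selected after the values were seen, by symbols of Cyp followed by a number, letters and a number. Symbols of another form, such as Cyp51, were not covered. Of the 92 rows so selected, 4 had a mean of at least 1 FPKM and 6 reached 1 FPKM in at least 1 library. The number at 1 FPKM or more was 4 with vehicle, 6 under ATRA, 1 under SAHA and 3 under both. Cyp20a1, a P450 gene of unassigned function, was highest with vehicle at 6.59 FPKM and stood at 6.23 under ATRA, 2.08 under SAHA and 1.88 under both. The others were Cyp4f13, Cyp4f16 and Cyp4f17, of fatty acid oxidation, at 1.20, 1.71 and 1.05 FPKM with vehicle, beside Cyp1a1 and Cyp1a2. Among all 92, 1 was higher with ATRA by the 2-fold mark, Cyp1a1, beside 100 of all 23359 rows. That scale hides rises of low genes: Cyp26b1 was at 0.0265 FPKM with vehicle and 0.377 under ATRA, 14.2-fold higher. Cyp1a2 was 3.73-fold higher. Folds of the other P450 genes below 1 FPKM were not compared.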
